A study of Mus musculus with 12 samples.

Results

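MHC class II presentation was followed through 10 mouse genes, taken by symbol from the 54532 genes of the deposited count table: H2-Aa, H2-Ab1, H2-Eb1, Cd74, Ctss, H2-DMa, H2-DMb1, H2-Oa, H2-Ob and Ciita. All 10 were found, each in 1 row. The libraries came from wild-type B16F10 tumours, a pigmented melanoma line, implanted in the skin of each leg in male hosts 8 to 12 weeks old and taken on day 14. The 6 iKO libraries came from hosts of genotype Trex1 fl/fl R26CreERT2 ki/wt, and the 6 Ctrl libraries from Trex1 wt/fl R26CreERT2 ki/wt hosts, which keep 1 Trex1 copy without a floxed allele. Every host thus carried the tamoxifen-activated Cre at Rosa26, at least 1 floxed Trex1 copy and the same tamoxifen course of 1 mg a day for 3 days from day 5, and the implanted tumour cells themselves were not edited. Trex1 encodes a cytosolic DNA exonuclease, and the comparison asks what its loss in the host changes in the tumour. Cells were sorted against CD45 (leukocytes) and CD31 (endothelium) before RNA extraction, and the labels do not tie libraries to mice, so p-values measure only the spread between libraries.

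Class II molecules present peptides from endocytosed proteins to CD4 T cells. An alpha and a beta chain assemble on the invariant chain (Cd74), cathepsin S (Ctss) trims that chain to a fragment in the endosome, H2-DM exchanges the fragment for peptide, and H2-O restrains H2-DM. Ciita, the class II transactivator, is recruited to a conserved promoter element made of an X box and a Y box. Dendritic cells, macrophages and B cells express the genes constitutively or on activation, and interferon gamma can induce Ciita in many other cells, including some melanoma cells.

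No library had a Trex1 count (0 in all 12), which left the genotype unchecked. Pigment cell transcripts fitted the tumour label: the 7 pigment genes had summed levels of 15053 to 21454 CPM (counts scaled to library size, with TMM factors) in iKO, against 21548 to 21937 CPM in Ctrl. The highest iKO sum was that of iKO 1, and the other iKO libraries had 18330 CPM or less. Of the 7 genes 6 were called lower in iKO (edgeR test described below), where 21.4% of all tested genes were. Leukocyte transcripts were present in spite of the sort. The 6 leukocyte genes (Ptprc, Cd52, Cd53, Laptm5, Coro1a and Rac2) had summed levels of 69.2 to 1169 CPM in iKO, against 2.13 to 88.7 CPM in Ctrl. iKO 1 (69.2 CPM) and Ctrl 5 (88.7 CPM) stood between the other iKO libraries, at 616 CPM or more, and the other Ctrl libraries, at 9.88 CPM or less. For the class II genes, and for pathway genes that it moves by over 1.5 times, values are also given without Ctrl 5 or without this pair. iKO 2 and iKO 3 went against the male label, with Xist at 219 and 117 CPM and 44 and 0 counts over 4 Y-linked genes, which had 1298 to 1513 counts in iKO 4 to 6, 239 in iKO 1 and 107 to 254 in Ctrl. Without both, the same 9 class II genes stood past the threshold. Library totals were 29.8 M to 35.5 M counts in iKO and 34.3 M to 45.8 M in Ctrl.

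The letters that Ciita acts through can be read in the promoters of these genes. RefSeq promoters (GRCm38.p6, which has the coordinates of mm10) were at hand for 7 of the 10 genes, and the 250 bases before each annotated start were searched on both strands for an X-Y module, spelled here as GNAAC followed after 20 to 30 bases by GATTGG. The spelling was chosen after these promoters had been read, so its share among them is not a test. The module was present in 5 of the 7 genes, H2-Aa, H2-Eb1, H2-DMb1, H2-Oa and H2-Ob, against 0.551% of 32851 promoters of all genes. GATTGG alone was present in 14.6% of them. In each of the 5 the module lay on the strand of the gene, began 76 to 94 bases before the RefSeq start, and had 24 to 27 bases between its parts. For H2-DMb1 that start lies inside the gene as given below, which begins at 34153072, and so does the module. Below are 3 of them, each from a gene whose level is compared in the next paragraphs, with the X part and the Y part in capitals.
H2-Aa, chr17:34287847-34287924, minus strand: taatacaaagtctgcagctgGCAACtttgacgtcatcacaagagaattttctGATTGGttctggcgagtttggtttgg
H2-Eb1, chr17:34305756-34305832, plus strand: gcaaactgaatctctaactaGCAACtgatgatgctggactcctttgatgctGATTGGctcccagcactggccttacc
H2-Ob, chr17:34238798-34238872, plus strand: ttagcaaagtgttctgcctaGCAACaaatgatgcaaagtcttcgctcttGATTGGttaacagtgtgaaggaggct

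H2-DMa and Ctss had no such module in this window. The Ctss promoter held the letters GAAA, any 2 bases and GAAA again, the core of the element through which interferon-regulated factors act, 21 bases before its start, and these letters were present in 2.98% of all promoters. It is printed to show this other element, with the matching letters in capitals. A match describes letters only and is not a measured binding site.
Ctss, chr3:95526745-95526785, plus strand: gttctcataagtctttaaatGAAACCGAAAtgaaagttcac

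All class II genes that could be tested were higher in iKO tumours. Of the 10 genes, 9 passed the filter on low counts and each of these 9 was called higher (edgeR quasi-likelihood test, Benjamini-Hochberg adjusted p under the threshold of 0.05 over 16164 genes), where 25.0% of all tested genes were called higher. None of the 9 was lower, also at an unadjusted p under 0.05, where 21.4% of all genes were called lower. Log2 fold changes ran from 2.32 for H2-DMb1 to 4.73 for Ctss with a median of 4.07, against a median of 0.02 over all tested genes. The filter bears on 2 genes: H2-Ob passed it through 5 iKO libraries and Ctrl 5, and H2-Oa, above the filter level in 5 iKO libraries and 0 Ctrl libraries, did not pass. The other 8 were above it in all 12 libraries. In 5 genes (H2-Aa, Cd74, H2-DMa, H2-DMb1 and Ciita) every iKO library lay above every Ctrl library, which was so in 11.8% of all tested genes, while in 11.1% every iKO library lay below every Ctrl library. In these mixed samples, fewer cells of a type and less RNA per cell cannot be told apart.

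**Figure D1:**
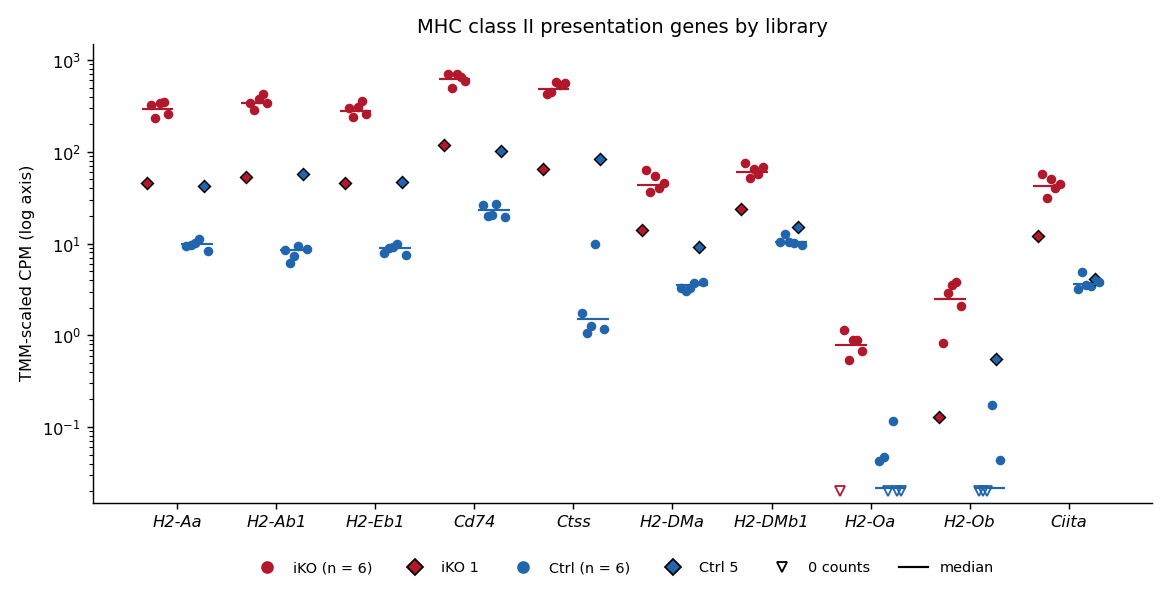
CPM (log axis) of the 10 class II genes in each library, iKO in red and Ctrl in blue, with a bar at the median of each group and triangles for 0 counts. Diamonds mark iKO 1 and Ctrl 5. They lie close together for H2-Aa, H2-Ab1, H2-Eb1, Cd74 and Ctss, whereas for Ciita Ctrl 5 (4.14 CPM) sits among the other Ctrl libraries.

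The chains that hold the peptide moved together. H2-Ab1, the beta chain of the I-A molecule (ENSMUSG00000073421, mm10 chromosome 17, 34263209 to 34269418), had a lowest, median and highest level of 52.9, 341 and 429 CPM in iKO, against 6.08, 8.58 and 58.0 CPM in Ctrl. Ctrl 5 held that highest Ctrl value and iKO 1 the lowest iKO value, so the groups overlapped by this pair alone. Its log2 fold change was 4.23 ± 0.76 (approximate SE, edgeR adjusted p = 0.00129), and 5.27 without Ctrl 5. H2-Aa, its alpha chain partner (chromosome 17, 34282744 to 34287827), had 45.3, 291 and 353 CPM in iKO as lowest, median and highest value, against 8.21, 9.87 and 42.8 CPM in Ctrl. Here the groups did not overlap, and the log2 fold change was 4.09 ± 0.62 (edgeR adjusted p = 0.000477), and 4.76 without Ctrl 5.

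H2-Eb1, the beta chain of the I-E molecule (chromosome 17, 34305877 to 34316199), had 46.3, 278 and 359 CPM in iKO as lowest, median and highest value, against 7.47, 9.06 and 46.6 CPM in Ctrl. iKO 1 lay just under Ctrl 5, and all other iKO libraries lay above all Ctrl libraries. In log2 terms the change was 4.07 ± 0.66 (edgeR adjusted p = 0.000717), and 4.88 without Ctrl 5. Its alpha chain partner is a pseudogene in mice of the H2-b haplotype, from which the B16F10 line also comes, and that row of the table (H2-Ea-ps, looked up after the other values were seen) had 0 counts in all 12 libraries.

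Cd74, the invariant chain (chromosome 18, 60803848 to 60812646), had the highest mean of the 10 per kilobase of gene length in both groups. It had 119, 621 and 713 CPM in iKO as lowest, median and highest value, against 19.3, 23.5 and 102 CPM in Ctrl, with no overlap. The log2 fold change was 3.93 ± 0.60 (edgeR adjusted p = 0.000489), and 4.61 without Ctrl 5. In the Ctrl libraries other than Ctrl 5 it stayed between 19.3 and 27.1 CPM.

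Ctss, the protease of the invariant chain (chromosome 3, 95526786 to 95556403), had the largest error of the 9 tested genes. It had 64.3, 491 and 575 CPM in iKO as lowest, median and highest value, against 1.05, 1.5 and 84.0 CPM in Ctrl. The highest Ctrl values were those of Ctrl 5 (84.0 CPM) and Ctrl 4 (9.99 CPM), the libraries that were also highest among Ctrl in leukocyte transcripts, and the other Ctrl libraries had 1.73 CPM or less. Its log2 fold change was 4.73 ± 1.29 (edgeR adjusted p = 0.0126), and 7.23 without Ctrl 5.

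The peptide exchange factors had smaller fold changes. H2-DMa, the alpha chain of H2-DM (chromosome 17, 34135182 to 34139101), had 14.2, 43.0 and 62.7 CPM in iKO as lowest, median and highest value, against 3.06, 3.52 and 9.21 CPM in Ctrl. H2-DMb1, a beta chain of H2-DM (chromosome 17, 34153072 to 34160230), had 23.7, 60.9 and 75.2 CPM in iKO, against 9.77, 10.5 and 15.1 CPM in Ctrl. The groups did not overlap in either gene. Both were present in Ctrl libraries that held hardly any leukocyte transcripts, and so were the chain genes, Cd74 and Ciita. In Ctrl 1, for example, H2-Aa was at 9.42 CPM, Cd74 at 26.2 CPM and Ciita at 3.19 CPM. Log2 fold changes were 3.27 ± 0.40 for H2-DMa (edgeR adjusted p = 0.000115) and 2.32 ± 0.24 for H2-DMb1 (edgeR adjusted p = 2.46e-05). In the GENCODE M21 annotation 10.4% of the exon bases of H2-DMa are shared with Brd2. That annotation starts H2-DMa at 34119541, before the gene counted here, and whether the shared bases were counted was not tested. H2-DMb1 has a near copy in H2-DMb2, so its reads may have been split or shared.

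The H2-O chains, inhibitors of H2-DM that are best known from B cells and some dendritic cells, were rare. H2-Ob (chromosome 17, 34238903 to 34245907) had 0.129, 2.50 and 3.84 CPM in iKO as lowest, median and highest value, against 0, 0.0219 and 0.552 CPM in Ctrl, or 438 counts against 28. iKO 1, the lowest iKO library, lay below Ctrl 4 and Ctrl 5. In log2 terms the change was 4.15 ± 1.06 (edgeR adjusted p = 0.00720), and 5.70 without Ctrl 5. Without Ctrl 5, H2-Ob passed the filter through iKO libraries alone, so its call there adds no support. H2-Oa (chromosome 17, 34092340 to 34095234) had 134 counts over iKO and 8 over Ctrl, with 0 counts in iKO 1, where 3 counts would be 0.0969 CPM, and 0.539 to 1.15 CPM in the other iKO libraries. It did not pass the filter, and in the fit with no filter its log2 fold change was 4.17 (edgeR adjusted p = 0.00173). Of its exon bases 22.8% are shared with BC051537, and the limit for 0 counts covers counting error only.

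Ciita, the transactivator (chromosome 16, 10480059 to 10528418), was higher in every iKO library, and unlike H2-Ab1 it was not raised in Ctrl 5. It had 12.1, 42.2 and 57.0 CPM in iKO as lowest, median and highest value, against 3.19, 3.67 and 4.86 CPM in Ctrl. The groups did not overlap, iKO 1 was the lowest of the iKO libraries, and Ctrl 5 (4.14 CPM) was not the highest of Ctrl. The log2 fold change was 3.36 ± 0.32 (edgeR adjusted p = 1.74e-05), and 3.40 without Ctrl 5. The table counts reads per gene, so the cell type specific promoters of Ciita are not resolved, and 3.45% of its exon bases are shared with Dexi.

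Per kilobase of gene length the 10 genes kept nearly the same order of mean levels in both groups. The Ctrl means leaned on Ctrl 5, and the Ctrl medians gave another order. In iKO the order of mean levels was Cd74 (387 ± 158 CPM per kilobase, SD, n = 6), Ctss (320 ± 140), H2-Eb1 (212 ± 92.0), H2-Ab1 (186 ± 80.6), H2-Aa (138 ± 61.0), H2-DMb1 (38.4 ± 12.2), H2-DMa (25.8 ± 10.2), Ciita (4.12 ± 1.68), H2-Ob (0.706 ± 0.474) and H2-Oa (0.525 ± 0.302). In Ctrl H2-Eb1 (12.7 ± 13.1 CPM per kilobase) and Ctss (12.2 ± 24.5) changed places, with Cd74 at 25.4 ± 23.1 and Ciita at 0.401 ± 0.0635. Neighbours in the order of means overlapped in range in both groups except at H2-DMa and Ciita and at Ciita and H2-Ob. In Ctrl H2-DMb1 and H2-DMa did not overlap either.

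The balance among the genes was compared as log2 ratios of counts within a library (0.5 counts added), which do not depend on library size, with a two-sided exact permutation test (every assignment of the 12 libraries to groups of 6) and adjustment over 19 ratios. Relative to H2-Ab1, Ctss was higher in iKO, and H2-DMa and H2-DMb1 were lower. There were 1.22, 1.40 and 1.63 Ctss counts per H2-Ab1 count in iKO (lowest, median, highest), against 0.134, 0.191 and 1.45 in Ctrl, a log2 difference of 2.08 (exact permutation test, adjusted p = 0.0187). Ctrl 5 (1.45) and Ctrl 4 (1.06) were the Ctrl libraries close to iKO. H2-DMb1 had 0.134, 0.192 and 0.449 counts per H2-Ab1 count in iKO, against 0.260, 1.18 and 2.08 in Ctrl, a log2 difference of -2.29 (exact permutation test, adjusted p = 0.0103). For H2-DMa the log2 difference was -1.29 (exact permutation test, adjusted p = 0.0123). Both calls and that of Ctss held when any 1 library was left out.

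The ratios to H2-Ab1 of the other genes were less settled. H2-Aa (log2 difference -0.41), H2-Eb1 (-0.32), Cd74 (-0.50) and Ciita (-1.32) passed the threshold with all 12 libraries (exact permutation test, adjusted p = 0.0460, 0.0460, 0.0343 and 0.0441). The call was lost in 10 of 12 omissions of 1 library for H2-Aa, H2-Eb1 and Ciita and in 7 for Cd74. The chain genes were held most tightly to one another in iKO, where the SD of the log2 ratio was 0.11 for H2-Aa and 0.082 for H2-Eb1, followed by Ctss (0.19) and Cd74 (0.20), while it was 0.52 for H2-DMa, 0.59 for H2-DMb1 and 0.46 for Ciita.

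Set against Ptprc, which encodes CD45, the 8 class II genes with counts in every library were lower per count in iKO. The log2 value for Ptprc itself was 5.98 (edgeR adjusted p = 0.00244), larger than that of each class II gene. There were 1.09, 1.77 and 3.04 H2-Ab1 counts per Ptprc count in iKO (lowest, median, highest), against 3.73, 15.8 and 42.7 in Ctrl, a log2 difference of -2.86 with no overlap (exact permutation test, adjusted p = 0.0103). For Ciita there were 0.148, 0.191 and 0.694 counts per Ptprc count in iKO, against 0.267, 6.38 and 20.7 in Ctrl, a log2 difference of -4.18 (exact permutation test, adjusted p = 0.0123). The difference was smallest for Ctss, at -0.78 (exact permutation test, adjusted p = 0.0460), and this call was lost in 10 of 12 omissions of 1 library. The calls of the other 7 were lost in 0. Ctrl libraries other than Ctrl 4 and Ctrl 5 held few Ptprc counts, so their ratios are imprecise. For H2-Oa and H2-Ob, 3 Ctrl libraries each had 0 counts of the gene, and the ratio there is set by the 0.5 counts added, so no difference relative to Ptprc or H2-Ab1 is read for them.

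**Figure D2:**
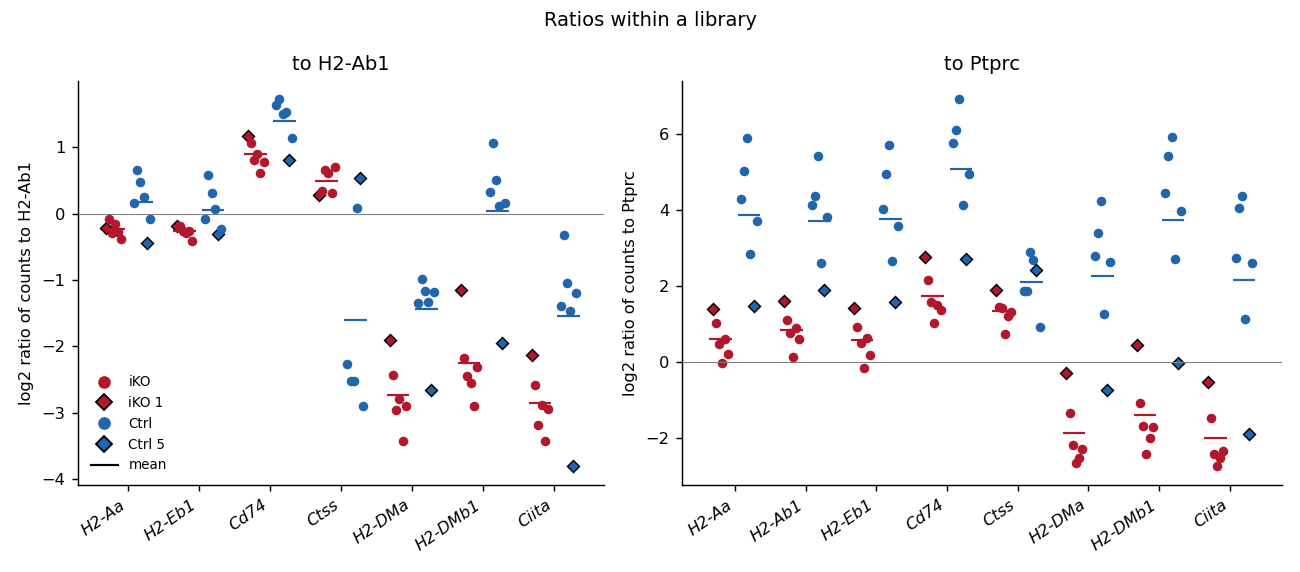
Log2 ratio of counts within a library to H2-Ab1 (left) and to Ptprc (right), 1 point per library, iKO in red left of Ctrl in blue, bars at the group means. Diamonds mark iKO 1 and Ctrl 5. Ratios of the chain genes to H2-Ab1 stay near 0. Those of H2-DMa, H2-DMb1 and Ciita to H2-Ab1 are lower on average in iKO, with Ctrl 5 the lowest Ctrl library. Ratios to Ptprc are lower on average in iKO. H2-Oa and H2-Ob are not drawn.

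The pair of libraries that stood between the groups in leukocyte transcripts lay close together in some class II genes and apart in others. iKO 1 and Ctrl 5 had leukocyte scores (mean log2 CPM of the 6 genes) of 3.35 and 3.68, while the other iKO libraries had 6.49 to 7.36 and the other Ctrl libraries -1.73 to 0.42. H2-Ab1 was 52.9 CPM in iKO 1 and 58.0 CPM in Ctrl 5, Cd74 119 and 102 CPM, and Ctss 64.3 and 84.0 CPM. Ciita was 12.1 CPM in iKO 1 and 4.14 CPM in Ctrl 5, H2-DMb1 23.7 and 15.1 CPM, and H2-DMa 14.2 and 9.21 CPM. With 1 library a side these are values without a replicate check. Within Ctrl, Ciita was highest (4.86 CPM) in Ctrl 2, the library with the lowest score (-1.73).

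**Figure D3:**
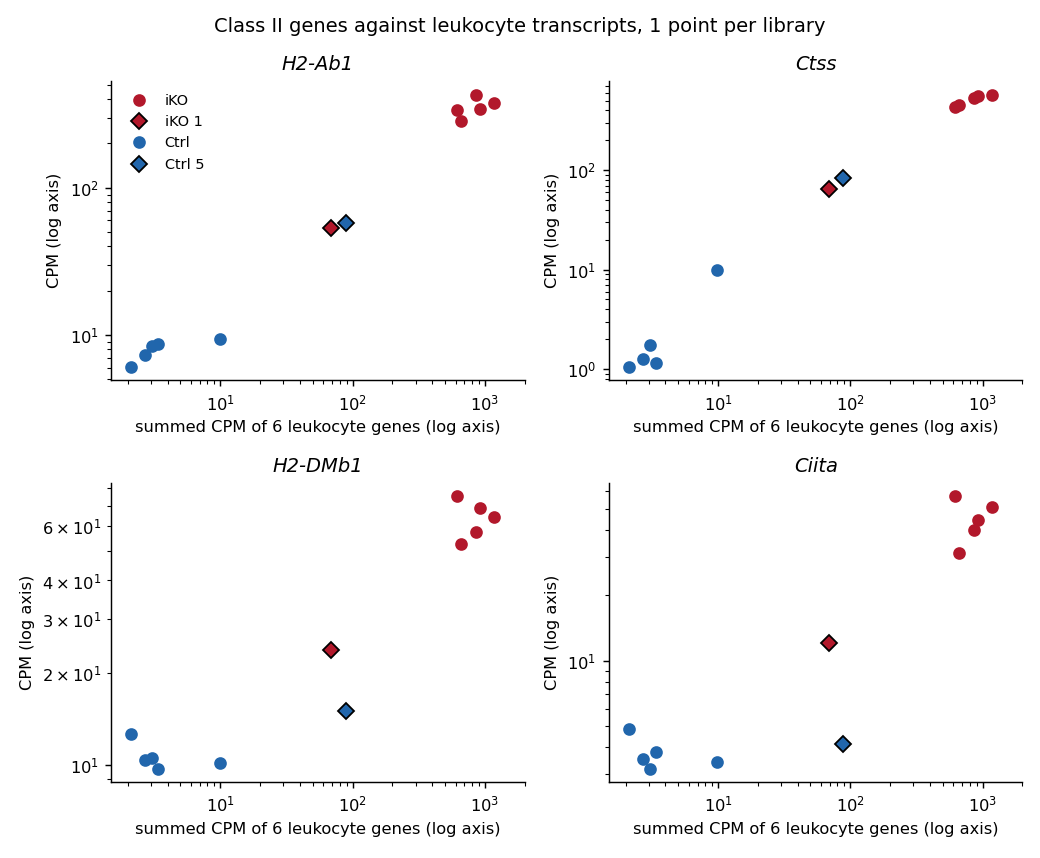
CPM of H2-Ab1, Ctss, H2-DMb1 and Ciita against the summed CPM of the 6 leukocyte genes, both on log axes, 1 point per library, iKO in red and Ctrl in blue, diamonds for iKO 1 and Ctrl 5. For H2-Ab1 and Ctss the diamonds lie together, whereas for Ciita iKO 1 (12.1 CPM) lies above Ctrl 5 (4.14 CPM).

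With the leukocyte score as a covariate none of the 9 genes kept its call (0 called by edgeR, 3 at an unadjusted p under 0.05), where 6.91% of all tested genes were called higher. The log2 fold change in that fit was 2.18 for Ciita (edgeR adjusted p = 0.0876), 1.13 for H2-DMb1 (0.117) and 1.05 for H2-DMa (0.106). It was 0.81 for H2-Aa, 0.80 for Cd74, 0.68 for H2-Eb1 and 0.45 for H2-Ab1 (adjusted p of 0.244 to 0.511), and below 0 for Ctss (-0.31) and H2-Ob (-1.83). This fit leans on iKO 1 and Ctrl 5, the only libraries with scores between the groups, and a p that misses the threshold does not show that the genes did not differ. Without that pair and without the covariate all 10 genes were tested and called higher, where 27.0% of all tested genes were higher and 20.3% lower, and the log2 fold change was 7.47 for Ctss, 5.96 for H2-Ob, 5.49 for H2-Ab1, 5.10 for H2-Eb1, 4.98 for H2-Aa, 4.82 for Cd74, 4.30 for H2-Oa, 3.82 for H2-DMa, 3.59 for Ciita and 2.59 for H2-DMb1. In that fit H2-Oa and H2-Ob passed the filter through iKO libraries alone, so their calls add no support.

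**Figure D4:**
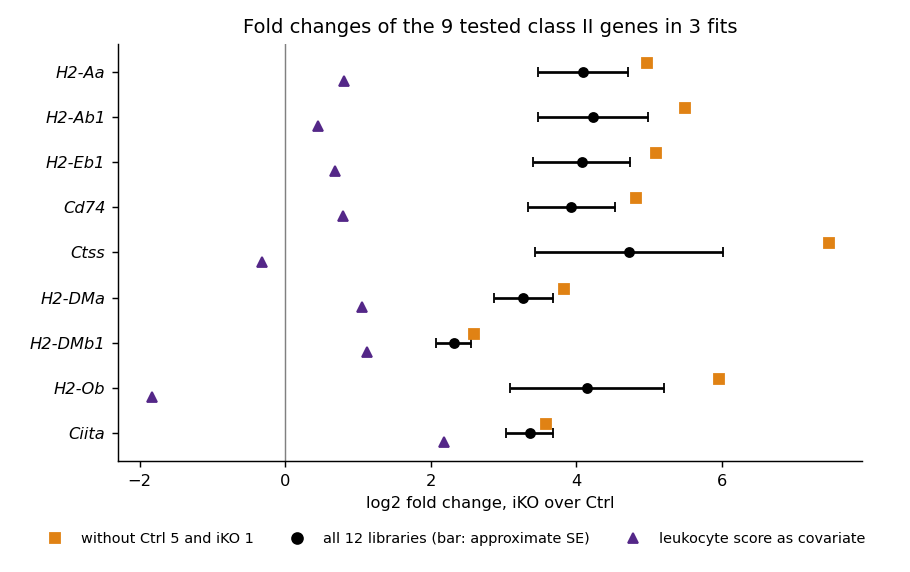
Log2 fold change of iKO over Ctrl for the 9 tested genes with all 12 libraries (black, bars for the approximate SE), without Ctrl 5 and iKO 1 (orange squares) and with the leukocyte score as a covariate (purple triangles). The triangles of Ciita (2.18), H2-DMb1 (1.13) and H2-DMa (1.05) lie highest, and those of Ctss (-0.31) and H2-Ob (-1.83) lie below 0.

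Markers of several cell types were higher in iKO alongside these genes, where 25.0% of all tested genes were called higher and 21.4% lower. Of 10 macrophage genes 9 were higher, and their sums were 274 to 2311 CPM in iKO and 18.2 to 484 CPM in Ctrl. Of 9 dendritic cell genes 6 were tested and 5 higher, with sums of 14.1 to 125 CPM in iKO and 7.73 to 17.3 CPM in Ctrl. Of these, Zbtb46 held much of the Ctrl sum and was not called (log2 fold change 0.20, edgeR adjusted p = 0.103). With limma voom the calls of Itgax (adjusted p = 0.0571) and Cd209a (adjusted p = 0.108) were lost. That of Cd209a was also lost with no filter on low counts (edgeR adjusted p = 0.0808). Of 7 B cell genes 2 were tested and 1 higher, Ighm, with sums of 3.62 to 35.8 CPM in iKO and 0.304 to 2.70 CPM in Ctrl. All 7 T cell genes were higher (median log2 fold change 6.72), with sums of 13.0 to 127 CPM in iKO and 3.77 to 8.52 CPM in Ctrl. Among them Cd3e, at 0.276 CPM or less in Ctrl, passed the filter through iKO libraries alone, so its call adds no support. Of 6 endothelial genes 3 were higher, Pecam1 (CD31, log2 fold change 1.38) among them, and 1 was lower, and of 6 fibroblast genes 1 was higher. The endothelial call of Tek did not hold with limma voom (adjusted p = 0.195). Fibroblast sums ran from 415 CPM (iKO 6) to 9515 CPM (iKO 2) in iKO, against 1443 to 1674 CPM in Ctrl. Neither Langerhans cell marker was tested, and Cd207 was at 0 in all libraries but iKO 2. Of 4 keratinocyte genes 3 were tested and higher, with a sum of 147 CPM in iKO 2 against 4.57 to 12.3 CPM in the other iKO libraries. With limma voom none of these 3 keratinocyte calls held (adjusted p of 0.0688 to 0.142), and without Ctrl 5 and iKO 1 the log2 fold change of Ptprc was 8.59. The part of each cell type in the class II levels was not tested.

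The wider pathway was read from a list of 38 genes, all of which passed the filter: 27 were higher in iKO and 3 lower, where 25.0% and 21.4% of all tested genes were, and their median log2 fold change was 0.91. Without Ctrl 5 and iKO 1, 28 were higher and 3 lower. In that fit H2-Eb2, H2-DMb2, Cd40 and Cd86 passed the filter through iKO libraries alone, so their calls there add no support. Upstream of Ciita, 9 of 10 genes were higher. Irf1, a factor that binds the interferon-responsive Ciita promoter, had 148, 236 and 305 CPM in iKO as lowest, median and highest value, against 60.9, 65.1 and 74.2 CPM in Ctrl (log2 fold change 1.82, edgeR adjusted p = 1.18e-06). The groups did not overlap, with every iKO library above every Ctrl library. The kinases Jak1 (0.58) and Jak2 (0.88) and the receptor chain Ifngr1 (0.94) were higher, and Ifngr2 was not called (0.06, edgeR adjusted p = 0.335). Irf8 (3.34) and Spi1 (4.84), factors of myeloid and B cells, were higher too, and Spi1 was at 11.3 CPM in Ctrl 5 and 0.816 CPM or less in the other Ctrl libraries (log2 fold change 7.81 without Ctrl 5 and iKO 1).

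Of the 7 genes of the complex that holds Ciita at the X and Y boxes, 1 was higher and 2 lower, shares near the 25.0% and 21.4% over all tested genes. Rfx5, an X box factor, averaged 17.9 ± 0.645 CPM in iKO and 13.3 ± 1.56 CPM in Ctrl (SD, n = 6, log2 fold change 0.43, edgeR adjusted p = 0.00104). Its partner Rfxap averaged 24.8 ± 1.26 CPM in iKO and 32.4 ± 4.10 CPM in Ctrl (-0.39, edgeR adjusted p = 0.00166), and the Y box factor Nfyb was lower by a log2 fold change of -0.32. Rfxank, Nfya, Nfyc and Creb1 had values between -0.11 and 0.08 and were not called.

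Genes of endosomal processing were higher in 6 of 7 cases, against 25.0% of all tested genes. Lgmn, an asparaginyl endopeptidase, averaged 456 ± 185 CPM in iKO and 108 ± 37.5 CPM in Ctrl (SD, n = 6, log2 fold change 2.08), and the cathepsins Ctsh (2.46), Ctsb (1.36) and Ctsl (0.56) followed. Ifi30, a thiol reductase of the endosome, had a log2 fold change of 0.71 and the protease inhibitor Cst3 of 0.82, while Ctsd was not called (0.15, edgeR adjusted p = 0.315). At the surface, March1, a ligase that marks class II for turnover, and Cd83, which counters it, were both higher (5.07 and 4.68), and March8 was not called (0.08, edgeR adjusted p = 0.288). The costimulators Cd40 (6.04), Cd86 (5.44) and Cd80 (2.28) were higher in all 3 cases, and so were the T cell receptors for class II, Cd4 (3.45) and Lag3 (3.26). Without Ctrl 5 and iKO 1 the log2 fold change was 7.85 for March1, 8.48 for Cd83, 8.42 for Cd40, 8.39 for Cd86 and 4.79 for Cd4. Cd40 and Cd86 passed the filter in that fit through iKO libraries alone, so their values there add no support. Cd40 missed the threshold with limma voom (adjusted p = 0.0507).

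Other class II region genes and the CD74 pathway completed the list. H2-Eb2, a second E beta gene, had 0.582 to 2.75 CPM in iKO and no count in Ctrl libraries other than Ctrl 5. Over the groups it had 241 counts in iKO and 2 in Ctrl, a ratio of 151 per scaled count (exact 95% interval 41.3 to 1252, counting error only). It passed the filter through iKO libraries alone, so its place among the genes called higher adds no support. H2-DMb2 was higher by 3.78, and by 6.28 without Ctrl 5 and iKO 1. In the latter fit it passed the filter through iKO libraries alone, so that value adds no support. Mif, a cytokine that binds CD74, averaged 628 ± 84.6 CPM in iKO and 804 ± 67.2 CPM in Ctrl (SD, n = 6, log2 fold change -0.36, edgeR adjusted p = 0.00411), in the opposite direction to its receptor. Its homologue Ddt was not called (-0.30, edgeR adjusted p = 0.102). Of the co-receptors, Cxcr4 was higher by 4.63 (6.44 without Ctrl 5 and iKO 1) and Cd44 by 0.17 (edgeR adjusted p = 0.0414), which did not pass with no filter on low counts (edgeR adjusted p = 0.225).

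With the leukocyte score as a covariate, 5 of the 38 pathway genes were higher and 2 lower, where 6.91% and 7.39% of all tested genes were. Among those higher were Irf1 (1.2), Rfx5 (0.65), Jak1 (0.57), with H2-Eb2, which has 2 counts in Ctrl, counted too. Those lower were Rfxap (-0.75) and Mif (-0.75).

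Among the genes outside the 10 whose profile over the 12 libraries was most like that of H2-Ab1 were Ifi27l2a, Cmklr1, Ucp2, Itgb2 and Bcl2a1b. Likeness was the root mean square difference of log2 CPM after each gene was centred on its own mean, and it was 0.23 for Ifi27l2a and 0.33 to 0.34 for the others named. Bcl2a1b had 0 to 0.717 CPM in Ctrl and 3.43 CPM or less in iKO. Its Ctrl log2 values are set largely by the small count added before the log, so its likeness is uncertain. Ifi27l2a, an interferon-inducible gene, had 11.2 to 75.0 CPM in iKO and 1.15 to 7.59 CPM in Ctrl. Among the class II genes, H2-Eb1 (0.28), H2-Aa (0.33) and Cd74 (0.36) were nearest to H2-Ab1, while Ciita (1.05), H2-DMb1 (1.38) and Ctss (1.41) were farther from it.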

How the data were processed

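RNA from sorted cells of 12 tumours, 6 per group, was sequenced after poly-T selection without strand information, per the labels' protocols. The authors deposited 1 table of raw read counts per gene, with 1 column per library. The build is mm10, per the submitters' processing notes, and for the aligner and counter the sources used here name none. The labels call the libraries single cell, but each is 1 column and was analysed as a bulk sample, and all carry 1 batch label. The sort is CD45-negative and CD31-negative in the cell type label.

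Genes were filtered with filterByExpr (minimum count 10, minimum total 15), scaled by TMM and tested with the quasi-likelihood test of edgeR 4.0.16 in R 4.3.3 on group alone over 12 libraries, with Benjamini-Hochberg adjustment and a threshold of 0.05. Approximate SEs are the size of the log2 fold change divided by the root of the F statistic. CPM are TMM-scaled. Tested on counts simulated for this comparison over 16164 genes, the fit recovered 65 of 87 genes changed by 1 and 104 of 113 changed by 2 on the log2 scale, with 6 false calls. Only these genes were changed, none of them of low level, and no simulated library was placed between the groups. The false calls therefore do not measure the error rate in these data. Alternatives were limma 3.58.1 (voom), DESeq2 1.42.0, other size factors, no filter, a replicate block, a leukocyte covariate and omitted libraries. All 10 genes and all genes of the pathway and marker lists were eligible to be named, and the 6 profiles most like H2-Ab1 were taken by rank. Some genes of these lists are not reported here. The members and lists were chosen with earlier results of these data known. Depth was 29.8 to 45.8 M counts per library, and floors for 0 counts (3 counts) cover counting error only.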

Additional observations from a re-analysis of the deposited data

Results flagged for a closer look

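In 41 cases 1 library stood far from the other 5 of its group (Dixon's test at its 95% critical value for 6 libraries), among 154 sets of 6 values looked at, where chance gives about 1 in 20. Of these, 31 were Ctrl 5, 7 iKO 1, 2 iKO 2 and 1 iKO 4.

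Among the class II genes, Ctrl 5 was highest of Ctrl in H2-Aa (42.8 CPM), H2-Ab1 (58.0), H2-Eb1 (46.6), Cd74 (102), Ctss (84.0), H2-DMa (9.21) and H2-Ob (0.552). iKO 1 was lowest of iKO in Cd74 (119 CPM) and Ctss (64.3). Ciita and H2-DMb1 levels had no such library.

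In the pathway list, Ctrl 5 was highest of Ctrl in H2-Eb2 (0.0552 CPM), H2-DMb2 (1.38), Spi1 (11.3), Usf1 (51.0), Ctsl (243), Ctsb (938), Ctsh (30.3), Lgmn (185), Ifi30 (71.3), Cst3 (189), March1 (3.09), Cd83 (4.5), Cxcr4 (5.16), Cd86 (1.99), Cd40 (1.46) and Cd4 (0.828). It was lowest of Ctrl in Cd44 (438 CPM). iKO 1 was lowest of iKO in Irf2 (28.8 CPM), Ctsh (26.6), Ifi30 (46.8) and Cd40 (1.58), and iKO 4 was highest of iKO in H2-Eb2 (2.75).

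Among the log2 ratios to H2-Ab1, Ctrl 5 was lowest of Ctrl for H2-DMa (-2.65), H2-DMb1 (-1.94) and Ciita (-3.80), and iKO 1 was lowest of iKO for H2-Oa (-11.68), where it had 0 H2-Oa counts. In summed marker levels Ctrl 5 was highest of Ctrl for leukocytes (88.7 CPM), macrophages (484), dendritic cells (17.3) and T cells (8.52), and iKO 2 was highest of iKO for Langerhans cells (4.25) and keratinocytes (147).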

How the results depend on the processing

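All 9 tested class II genes stayed higher in iKO and past the threshold under other size factors, voom, DESeq2, no filter, the replicate block and every omission of libraries. The exception was the leukocyte covariate, with 0 class II genes higher, 5 pathway genes higher, 1117 genes higher and 1194 lower over all, and negative values for Ctss (-0.31) and H2-Ob (-1.83). The cause was not tested. Leaving out 1 library at a time gave 9 to 10 class II genes higher and 0 lower, 26 to 27 pathway genes higher and 3 to 4 lower, and 3707 to 4484 genes higher and 2671 to 3750 lower over all. The gene added in some of these fits was H2-Oa, above the filter level in 5 iKO libraries and 0 Ctrl libraries. Its calls add no support. Nor does the call of H2-Ob without Ctrl 5, where H2-Ob passed the filter through iKO libraries alone. Of the 19 ratios 17 were called, H2-Oa and H2-Ob to Ptprc among them, and 11 to 16 with 1 library left out. Under the replicate block 0 were called, but its 64 sign flips allow no p under 0.0312 (exact permutation test, smallest adjusted p 0.0540), so this says nothing on stability. The log2 difference for H2-Ob to H2-Ab1, not called, was -0.069 with a pseudocount of 1. The deviations of same-numbered libraries had correlations of -0.13 to 0.25, which cannot settle whether the numbers pair the libraries. No call of a class II gene was lost under the block.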
